A study of Homo sapiens with 12 samples.

Results

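The genes described here are 10 core genes of Notch signalling, namely 3 Fringe enzymes (LFNG, MFNG, RFNG), 3 receptors (NOTCH1, NOTCH2, NOTCH3), 2 Jagged ligands (JAG1, JAG2) and 2 targets (HES1, HEY1). They are 10 of the 29972 gene rows in each of 2 deposited result tables, were picked by name, and were picked knowing that LFNG fell in one cell line and rose in the other after depletion of PHF19. For these genes the effect of the siRNA is therefore given as a description, with no test. A difference between the control cells of the 2 lines was not named in that choice, and it was tested. The same control libraries entered the LFNG fold changes, however, and earlier results of these data were known.

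The series measured messenger RNA in 2 lines of triple-negative breast cancer. They are MDA-MB-436 and BoM-1833, a bone-seeking line that is known to derive from MDA-MB-231 and is not a derivative of MDA-MB-436. Control groups (MDA-MB-436 siNT and BoM-1833 siNT) received a pool of non-targeting siRNAs, and treated groups (MDA-MB-436 siPHF19 and BoM-1833 siPHF19) received a mixture of 2 siRNAs against PHF19 in equal parts. PHF19 is a Polycomb-like accessory subunit of the histone H3K27 methyltransferase PRC2. All 4 groups had the same total siRNA concentration of 5 nM, the same transfection reagent and a harvest at 72 h, with 3 libraries each and 12 libraries in all. The knockdown was transient, control and PHF19 siRNAs were bought from separate suppliers, and the effects of the 2 PHF19 siRNAs cannot be told apart in a mixture. Nothing in the labels says that replicates came from separate cultures, so p-values measure the spread between these libraries, which may be technical.

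Notch receptors are single-pass membrane proteins that are activated by ligands on a neighbouring cell. Ligand binding and pulling expose the receptor to an ADAM protease and then to gamma-secretase, and the released intracellular domain joins the DNA-binding protein RBPJ and a Mastermind coactivator to switch on genes such as HES1 and HEY1, which encode transcriptional repressors. Fringe enzymes add N-acetylglucosamine to O-fucose on the EGF repeats of the receptor in the Golgi, which in general favours activation by Delta-like ligands, and LFNG and MFNG dampen activation by Jagged ligands. In breast cancer, JAG1 on tumour cells is known for its part in osteolytic bone metastasis.

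The promoters of LFNG and HES1 are shown because LFNG moved in opposite directions between the lines and HES1 is the target most directly tied to RBPJ. Each window runs 5′ to 3′ on the gene's strand from 250 bases before to 50 bases after a RefSeq start (GRCh38.p14), and capitals mark the 6-base core TGGGAA bound by RBPJ, or TTCCCA where the core lies on the other strand. The table used holds 2 windows for LFNG, at chr7:2512279-2512578 and chr7:2517613-2517912, both on the plus strand, and 1 for HES1, at chr3:194135898-194136197 on the plus strand.
LFNG, first window: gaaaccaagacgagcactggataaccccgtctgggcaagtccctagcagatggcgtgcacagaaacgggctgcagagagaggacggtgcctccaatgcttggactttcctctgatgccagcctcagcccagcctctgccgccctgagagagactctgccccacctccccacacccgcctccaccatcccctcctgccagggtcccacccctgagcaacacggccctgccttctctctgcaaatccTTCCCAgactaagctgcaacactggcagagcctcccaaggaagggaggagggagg
LFNG, second window: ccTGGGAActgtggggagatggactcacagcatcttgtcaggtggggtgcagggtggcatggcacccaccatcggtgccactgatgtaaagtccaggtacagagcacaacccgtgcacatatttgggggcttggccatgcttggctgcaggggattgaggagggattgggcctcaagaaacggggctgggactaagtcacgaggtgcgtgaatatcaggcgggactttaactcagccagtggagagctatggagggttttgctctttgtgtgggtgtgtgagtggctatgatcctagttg
HES1: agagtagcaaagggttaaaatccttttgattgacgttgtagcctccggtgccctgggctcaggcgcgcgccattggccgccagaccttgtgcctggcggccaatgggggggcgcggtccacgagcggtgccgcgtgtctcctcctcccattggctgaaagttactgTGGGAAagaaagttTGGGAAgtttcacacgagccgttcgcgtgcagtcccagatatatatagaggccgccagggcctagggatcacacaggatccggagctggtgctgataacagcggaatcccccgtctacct
The HES1 window held 2 cores 14 bases apart on the same strand, the first beginning 84 bases before the start. Of all 35116 windows of 300 bases, 24.0% held at least 1 core on either strand and 3.796% at least 2. Each LFNG window held 1 core, beginning 5 bases before the start in the first and 248 bases before it in the second. No core was found in the windows of RFNG, NOTCH1, NOTCH2, NOTCH3, JAG1 and JAG2, so 3 of the 9 windows, which cover 8 of the 10 genes, had one. Of 56 windows of 42 other Notch pathway genes, 26.8% had one. A match of these letters is a description of the sequence and not a bound site.

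The same windows differed in CpG content, and in mammals Polycomb complexes are known to occupy CpG-rich promoters. The observed over expected CpG ratio was 0.286 and 0.280 in the LFNG windows, lower than in each of the other 7 windows of these genes, where it ran from 0.69 in JAG1 to 0.98 in NOTCH1. The median of all windows was 0.579. GENCODE v29 lists further LFNG transcripts with starts between 2518554 and 2524648, outside both windows, and CpG content at those starts was not measured. Counts given per gene cannot tell which start was used.

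In GRCh38 with GENCODE v29, MFNG lies on chromosome 22 (37469063 to 37486401), RFNG on chromosome 17 (82047902 to 82051831), NOTCH1 on chromosome 9 (136494433 to 136545786), NOTCH2 on chromosome 1 (119911553 to 120069626), NOTCH3 on chromosome 19 (15159038 to 15200981), JAG1 on chromosome 20 (10637684 to 10673999) and JAG2 on chromosome 14 (105140981 to 105168824), all on the minus strand, as is HEY1. HES1 lies on the plus strand of chromosome 3 (194136145 to 194138732). NOTCH1 and JAG1 each overlap a transcript on the other strand, JAG2 overlaps AL512356.1 on the same strand, and counts are given per gene.

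The knockdown was present in every treated library. PHF19 had 2942, 3354 and 3763 normalized counts in the 3 MDA-MB-436 siNT libraries and 340.1, 326 and 315 in the siPHF19 libraries. In BoM-1833 it had 1711, 1684 and 1669 against 181, 201 and 173. Libraries held between 13.7 and 24.0 M reads in genes. ESR1 and PGR, the hormone receptors that define the triple-negative class by their absence, had group means of at most 1.72 normalized counts, and ERBB2 had means of 1041 to 1120 in all 4 groups. CD3E and ADIPOQ, markers of T cells and adipocytes, were at 0 in all libraries, while PECAM1 had a mean of 323 normalized counts in BoM-1833 siNT and CDH5, the other endothelial marker, 0.901. PTPRC, LYZ and DES had means of at most 18.5 in any group. The filament genes of both a mesenchymal and an epithelial cell were present, VIM with 19768 and KRT18 with 5003 in MDA-MB-436 siNT and with 73419 and 7855 in BoM-1833 siNT. Replicate 1 of siNT stood apart from the other siNT libraries in both lines. Chi-square per degree of freedom over genes was 12.5 to 25.5 for pairs with it, against 6.18 and 8.22 for the remaining siNT pair of each line and 2.32 to 3.56 for pairs of siPHF19 libraries. Fold changes were therefore also computed without it.

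LFNG, the Fringe enzyme whose periodic expression is known from the segmentation clock of the embryo, was high in one line and low in the other after siPHF19. In MDA-MB-436 its normalized counts, which are reads divided by the authors' size factor of the library, were 266, 284 and 297 in siNT and 80.7, 80.3 and 79.2 in siPHF19. All 3 treated libraries lay far below all 3 controls, and the treated libraries hardly differed among themselves. In BoM-1833 the counts were 569, 444 and 553 in siNT and 754, 780 and 717 in siPHF19, so that the groups again did not overlap but in the other direction. The log2 fold change in the authors' deposited table was -1.82 (SE 0.16) in MDA-MB-436, a mean 3.53-fold lower, and 0.52 (SE 0.11) in BoM-1833, a mean 1.44-fold higher. The difference between lines was 2.34 (SE 0.19) on the log2 scale. Over the 11 alternatives run per line the estimates ran from -1.86 to -1.78 in the first and from 0.42 to 0.59 in the second, again as a description. In bulk RNA, fewer cells that express a gene and less RNA per cell cannot be told apart. Of 12290 genes tested in both tables, 734 were called in both and 37 of these in opposite directions. LFNG was 1 of 22 genes called lower in MDA-MB-436 and higher in BoM-1833, and the sole one of the 10 Notch genes called in opposite directions. Its gene lies on the plus strand of chromosome 7 from 2512529 to 2529177 (GRCh38, GENCODE v29) and contains the microRNA gene MIR4648.

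RFNG, the second Fringe enzyme, was steady in comparison. Its normalized counts were 303, 302 and 302 in MDA-MB-436 siNT and 317, 303 and 355 in siPHF19, and 406, 337 and 384 against 396, 423 and 465 in BoM-1833. Groups overlapped in both lines, the log2 fold changes were 0.10 (SE 0.12) and 0.19 (SE 0.12), and neither was called. RFNG overlaps GPS1 on the other strand of chromosome 17, and the use of strand in counting is not given in the sources used here. MFNG, the third Fringe, had between 0 and 7 reads per library in all 12 libraries and was not tested in either table.

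Reads were divided by the exon length of GENCODE v29 to compare levels between genes, giving reads per kilobase and per M reads. On this scale LFNG made up 51.0% of the summed Fringe level in MDA-MB-436 siNT (SD 1.59, n = 3) and 21.6% in siPHF19 (SD 1.66, n = 3). RFNG accounted for nearly all of the remainder, with 48.3% and 77.3%, and MFNG for 0.748% and 1.04%. In BoM-1833 the LFNG share was 60.7% in siNT (SD 1.07, n = 3) and 66.0% in siPHF19 (SD 2.57, n = 3). On this scale Fringe RNA thus passed from about equal LFNG and RFNG to mostly RFNG in MDA-MB-436, and stayed mostly LFNG in BoM-1833. The balance between the genes depends on the exon lengths used.

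**Figure D1:**
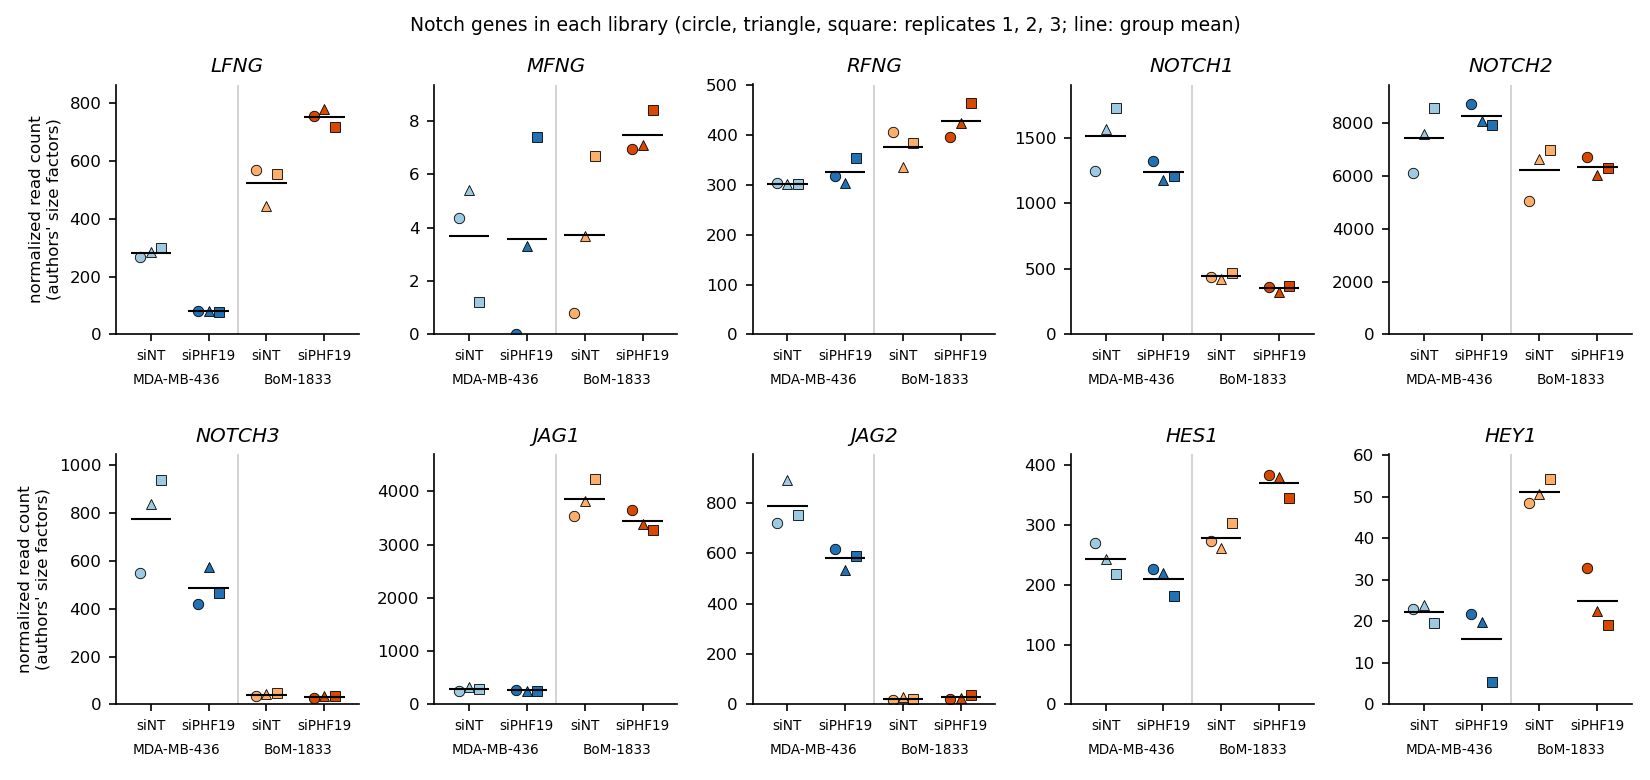
Normalized read counts of the 10 Notch genes in each of 12 libraries (vertical axes, linear from 0 and scaled per gene) by line and siRNA (horizontal axis), with circles, triangles and squares for replicates 1, 2 and 3 and a line at the mean. LFNG is lower in all 3 siPHF19 libraries of MDA-MB-436 and higher in all 3 of BoM-1833, and NOTCH3 and JAG2 are low in BoM-1833.

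Among the receptors, NOTCH2 was the most abundant in all 4 groups. It had 23.6 reads per kilobase per M reads in MDA-MB-436 siNT (SD 4.29, n = 3) and 22.1 in BoM-1833 siNT (SD 3.78, n = 3), and made up 66.0% and 88.6% of the summed level of the 3 receptors. Its normalized counts were 6095, 7597 and 8563 in MDA-MB-436 siNT and 8734, 8090 and 7917 in siPHF19. In BoM-1833 they were 5042, 6634 and 6986 against 6722, 6013 and 6278. Groups overlapped in both lines, with log2 fold changes of 0.15 (SE 0.11) and 0.03 (SE 0.09), and the deposited tables did not call it. In both lines the lowest NOTCH2 value belonged to siNT replicate 1. Without that library the log2 fold changes were 0.03 and -0.10, still not called, and without MDA-MB-436 siNT replicate 3 the first was 0.27 and called. NOTCH2 has near-identical partial copies of the NOTCH2NL type, and reads shared with them may be assigned either way.

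NOTCH1, the receptor with the broadest role in development and in T-cell leukaemia, had 1248, 1566 and 1729 normalized counts in MDA-MB-436 siNT and 1327, 1179 and 1209 in siPHF19. BoM-1833 had 439, 423 and 467 against 361, 326 and 374. The groups overlapped in MDA-MB-436 because of siNT replicate 1 and did not in BoM-1833, where each treated library was lower. The log2 fold change was alike in the 2 lines, -0.29 (SE 0.12) and -0.33 (SE 0.11), and was called lower in BoM-1833 alone. Without siNT replicate 1 the MDA-MB-436 value was -0.41 and called. The BoM-1833 call was lost in each of the 6 fits without 1 library, in which the value ran from -0.37 to -0.27. The share of NOTCH1 in the summed receptor level was 21.8% and 18.03% in siNT and siPHF19 of MDA-MB-436, and 10.4% and 8.21% in those of BoM-1833.

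NOTCH3, best known from vascular smooth muscle and also expressed in part of breast cancers, had 548, 836 and 939 normalized counts in MDA-MB-436 siNT and 419.7, 573 and 467 in siPHF19. The treated library with the highest value exceeded the control with the lowest, siNT replicate 1, so the groups overlapped. BoM-1833 libraries had 33.3, 43.3 and 45.8 against 24.8, 35.4 and 36.0. The log2 fold change was -0.67 (SE 0.18) in MDA-MB-436, called lower, and -0.35 (SE 0.35) in BoM-1833, not called. Without MDA-MB-436 siNT replicate 3 the value was -0.51 and not called, and without siNT replicate 1 it was -0.86 and called. NOTCH3 made up 12.2% of the summed receptor level in MDA-MB-436 siNT, 7.85% in siPHF19, and 1.04% and 0.830% in those groups of BoM-1833.

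The Jagged ligands divided the lines. JAG1 had 261, 328 and 296 normalized counts in MDA-MB-436 siNT and 276, 256 and 261 in siPHF19, and 3541, 3830 and 4231 against 3652, 3390 and 3267 in BoM-1833. Groups overlapped in both lines and the log2 fold changes were nearly the same, -0.16 (SE 0.14) and -0.17 (SE 0.07), neither called. Without BoM-1833 siNT replicate 1, the control with the lowest JAG1, the value was -0.23 and called. JAG2, a ligand known for its roles in limb and thymus, had 721, 894 and 752 in MDA-MB-436 siNT and 617, 534 and 590.4 in siPHF19, with every treated library lower. In BoM-1833 it had 15.9, 31.4 and 22.9 against 20.9, 25.9 and 37.2, with groups that overlapped. The log2 fold change was -0.45 (SE 0.11) in MDA-MB-436, called lower, and 0.26 (SE 0.43) in BoM-1833, not called. Without MDA-MB-436 siNT replicate 2, the highest control, the first value was -0.34 and not called. The difference between lines for JAG2 was 0.71 (SE 0.44) on the log2 scale, an uncertain value because BoM-1833 had 20 to 34 JAG2 reads per library.

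**Figure D2:**
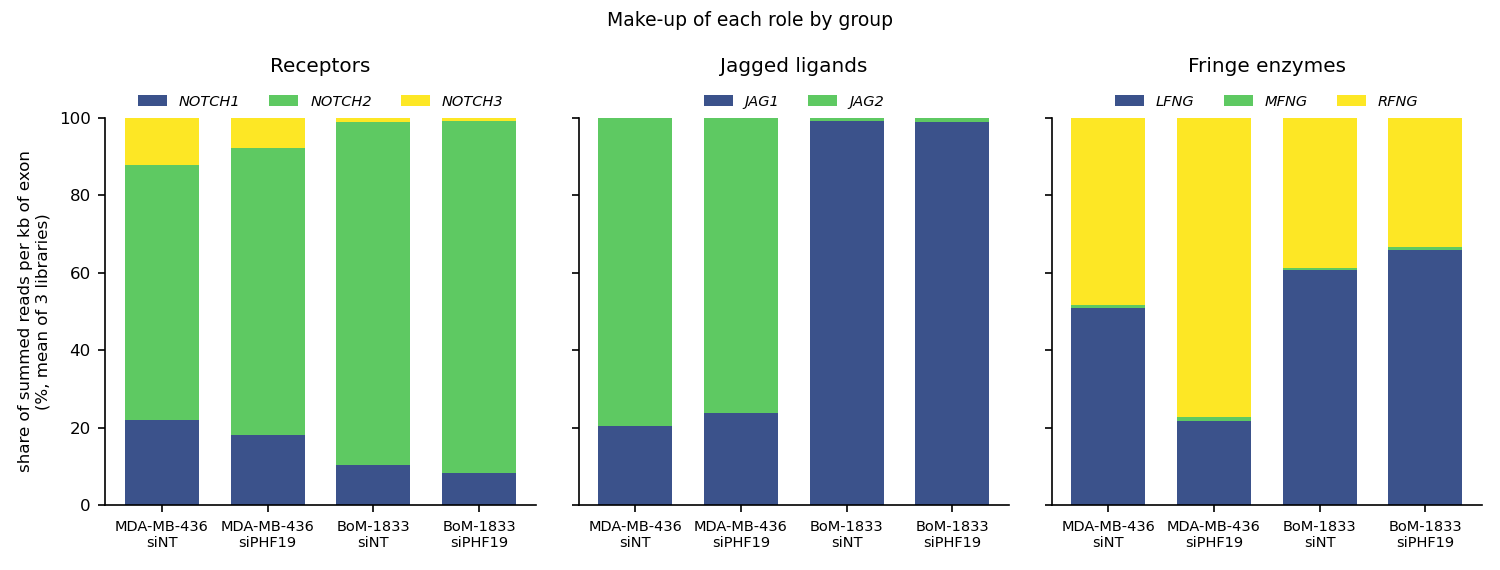
Share of each gene in the summed reads per kilobase of its role (vertical axis, %, mean of 3 libraries) for the 4 groups (horizontal axis), in panels for receptors, Jagged ligands and Fringe enzymes. JAG2 makes up 79.5% of the Jagged level in MDA-MB-436 siNT and JAG1 99.1% in BoM-1833 siNT, and the LFNG share falls from 51.0% to 21.6% in MDA-MB-436.

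The 2 targets moved in opposite directions in BoM-1833, and neither was called in MDA-MB-436. HES1, a repressor that is a direct target of the RBPJ complex in most tissues, had 269.6, 243 and 219 normalized counts in MDA-MB-436 siNT and 227, 220.3 and 182 in siPHF19. The BoM-1833 values were 273, 261 and 303 against 384, 381 and 346. The groups overlapped in MDA-MB-436, while every treated library of BoM-1833 was higher. The log2 fold change was -0.22 (SE 0.15), not called, in MDA-MB-436 and 0.41 (SE 0.12), called higher, in BoM-1833. The difference between lines was 0.63 (SE 0.20). The BoM-1833 call was lost without siNT replicate 2, without siPHF19 replicate 1 and without siPHF19 replicate 2, with values of 0.36, 0.38 and 0.39.

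HEY1, a repressor of the Hairy family related to HES1, had 22.9, 24.0 and 19.6 normalized counts in MDA-MB-436 siNT and 21.8, 19.9 and 5.28 in siPHF19, and the third treated library lay below the rest. Those of BoM-1833 were 48.4, 50.7 and 54.4 against 32.8, 22.4 and 19.2, and every treated library was lower. The log2 fold change was -0.50 (SE 0.51), not called, in MDA-MB-436 and -1.03 (SE 0.35), called lower, in BoM-1833, a mean 2.06-fold lower. The lines differed by -0.53 (SE 0.62), less than its standard error. These values rest on 5 to 61 reads per library. The BoM-1833 call was lost without siNT replicate 2, siPHF19 replicate 2 or siPHF19 replicate 3, with values from -1.04 to -0.88, and no adjusted p was given without siNT replicate 1 or 3. In BoM-1833, HES1 and HEY1 thus moved in opposite directions.

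In all, the deposited tables called 3 of the 9 tested Notch genes in MDA-MB-436, all lower (LFNG, NOTCH3, JAG2), where 22.1% of 14243 tested genes were called and 11.5% were called lower. In BoM-1833 they called 4 of 9, with LFNG and HES1 higher and NOTCH1 and HEY1 lower, where 10.9% of 12906 were called, 5.21% higher and 5.72% lower. Libraries did not overlap between siNT and siPHF19 for 2 of the 10 genes in MDA-MB-436 and for 5, MFNG included, in BoM-1833, against 42.2% and 31% of all tested genes. The median log2 fold change of the 9 genes was -0.29 in MDA-MB-436, against 0.03 in BoM-1833, and that of all tested genes was -0.0022 and -0.0035. The BoM-1833 count fell to 1 without siNT replicate 2 or siPHF19 replicate 2, and to 2 without siNT replicate 3, siPHF19 replicate 1 or siPHF19 replicate 3. Since the choice of the genes drew on these comparisons, nothing is read from the counts.

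Some of these estimates moved when siNT replicate 1 was left out. In MDA-MB-436 the log2 fold changes without it were -1.86 for LFNG, 0.10 for RFNG, -0.24 for JAG1, -0.51 for JAG2, -0.14 for HES1 and -0.48 for HEY1. NOTCH1 alone changed its call there, which gave 4 called genes. In BoM-1833 the values without it were 0.59 for LFNG, 0.25 for RFNG, -0.33 for NOTCH1, -0.48 for NOTCH3, 0.04 for JAG2 and 0.39 for HES1. JAG1 gained a call there, NOTCH1 lost its call and HEY1 had no adjusted p, which gave 3 called genes.

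**Figure D3:**
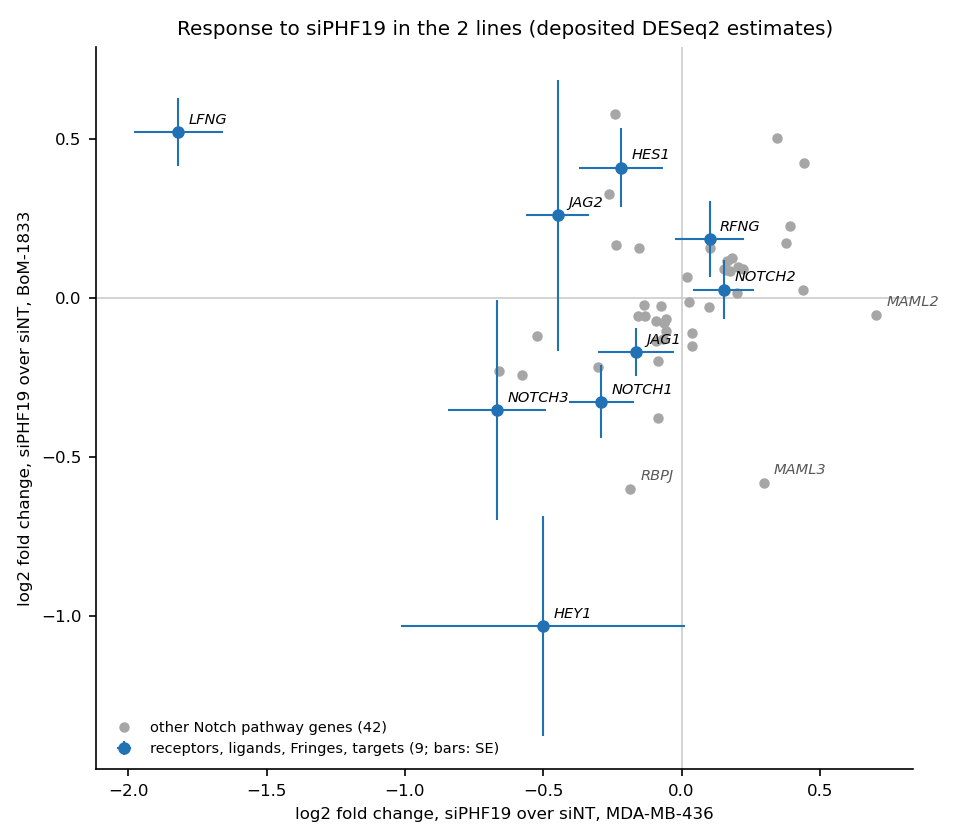
Log2 fold change of siPHF19 over siNT in MDA-MB-436 (horizontal axis) and BoM-1833 (vertical axis) for the 9 tested Notch genes (blue, bars show the standard error) and 42 other Notch pathway genes tested in both lines (grey), from the deposited DESeq2 estimates. LFNG lies apart at -1.82 and 0.52, and MAML2, MAML3 and RBPJ are the pathway genes whose response was called different between lines by the z test.

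The control cells were compared to ask how the 2 lines differ in the Notch genes before any depletion of PHF19. Whole reads were recovered from the tables of both lines and normalized together, and edgeR's quasi-likelihood test called 8 of the 9 tested genes, 5 higher and 3 lower in BoM-1833. The lines are far apart as a whole, with 82.8% of 15035 genes called, 40.6% higher and 42.3% lower, and a count of 8 of 9 is near that background. Control libraries of the 2 lines did not overlap for the same 8 genes, as for 81.3% of all tested genes. A log2 fold change of at least 1 in size, together with a call, was seen in 6 of the 9 Notch genes and in 42.8% of all genes.

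JAG1 was 14.8-fold higher in BoM-1833 than in MDA-MB-436 (95% interval 12.97 to 16.9, adjusted p 6.70e-16 by edgeR), with 215, 232 and 256 counts per M against 13.9, 17.6 and 15.7. JAG2 was 30.03-fold lower (log2 fold change -4.91, 95% interval -5.28 to -4.54, adjusted p 1.14e-13 by edgeR), with 0.966, 1.90 and 1.38 counts per M against 38.3, 47.9 and 39.95. JAG2 thus made up 79.5% of the Jagged level per length in MDA-MB-436 siNT (SD 0.741, n = 3) and JAG1 99.1% in BoM-1833 siNT (SD 0.275, n = 3). NOTCH3 was 16.8-fold lower in BoM-1833 (log2 fold change -4.07, 95% interval -4.52 to -3.61, adjusted p 1.92e-11 by edgeR) and NOTCH1 3.003-fold lower (-1.59, 95% interval -1.80 to -1.37, adjusted p 2.51e-10). NOTCH2 did not pass the test (log2 fold change -0.07, 95% interval -0.31 to 0.18, adjusted p 0.589). Without siNT replicate 1 of MDA-MB-436 the NOTCH2 value was -0.19 and without that of BoM-1833 it was 0.06, still not called.

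LFNG was 2.10-fold higher in BoM-1833 siNT (95% interval 1.84 to 2.41, adjusted p 1.31e-08 by edgeR), with 34.6, 26.9 and 33.5 counts per M against 14.1, 15.3 and 15.8. RFNG was 1.41-fold higher (95% interval 1.23 to 1.62, adjusted p 1.00e-04). After siPHF19 the lines were further apart in LFNG, with 4.22 to 4.30 counts per M in MDA-MB-436, against 43.3 to 47.0 in BoM-1833. HEY1 was 2.59-fold higher in BoM-1833 siNT (95% interval 1.65 to 4.07, adjusted p 0.00059 by edgeR) and HES1 1.299-fold higher (95% interval 1.11 to 1.52, adjusted p 0.00352). These 8 calls were kept under each of the 10 alternatives that refitted the model. Without siNT replicate 1 of MDA-MB-436, or that of BoM-1833, the log2 fold changes were 3.81 and 3.95 for JAG1, -4.97 and -4.67 for JAG2, -4.26 and -3.93 for NOTCH3, and 1.04 and 1.01 for LFNG.

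**Figure D4:**
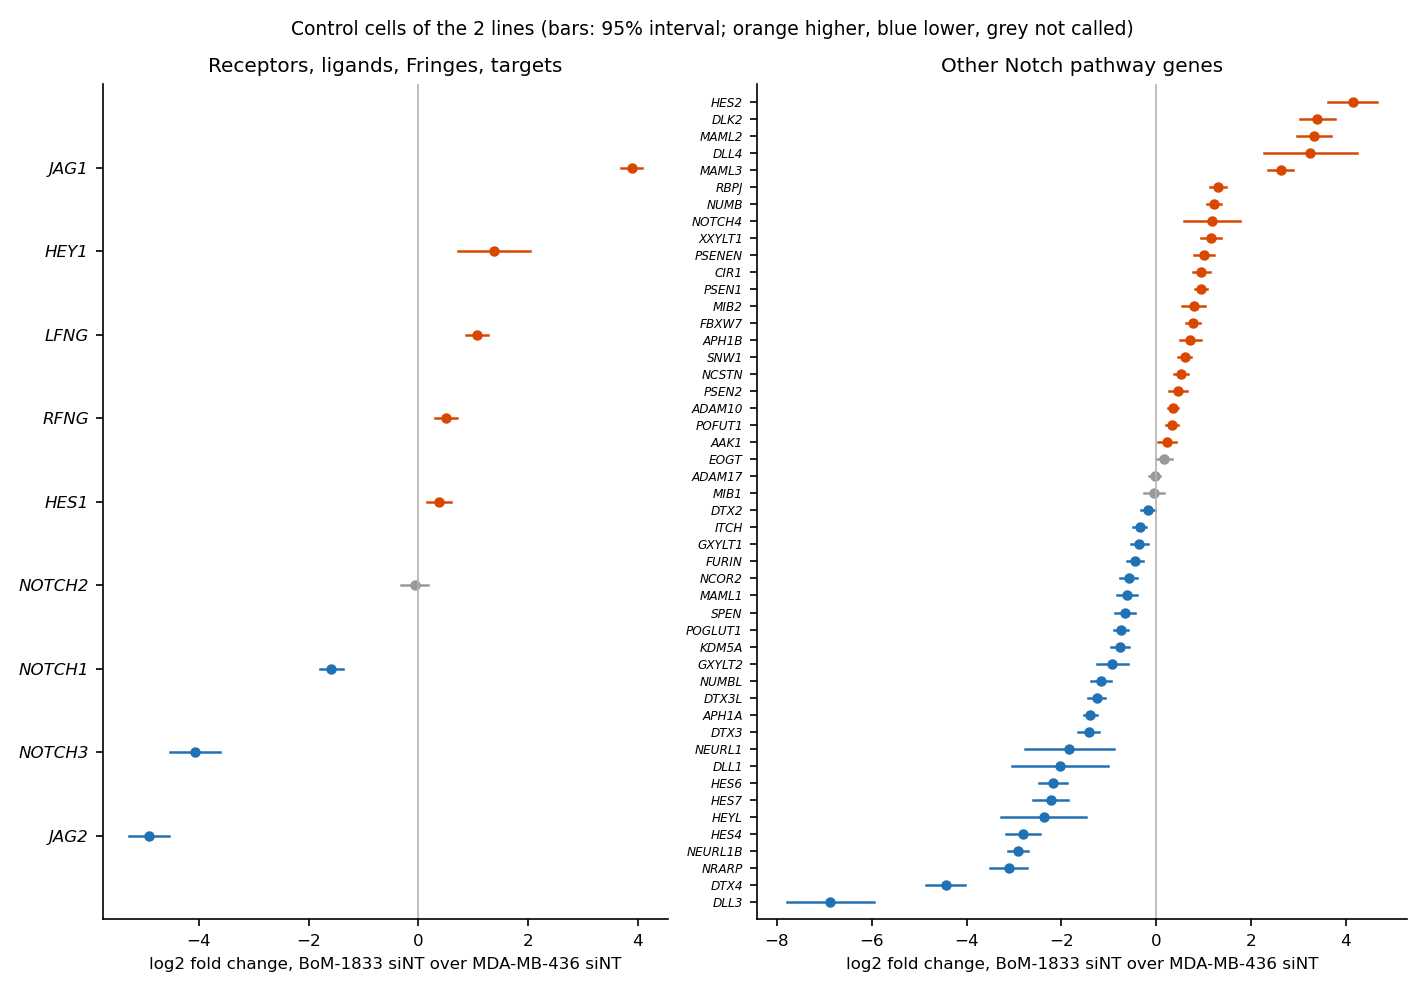
Log2 fold change of BoM-1833 siNT over MDA-MB-436 siNT (horizontal axes) for the 9 tested Notch genes (left) and 48 other Notch pathway genes (right), with bars for the 95% interval, orange for higher, blue for lower and grey for not called. JAG1 at 3.89 and JAG2 at -4.91 lie at the ends of the left panel, and DLL3 at -6.87 and HES2 at 4.14 at those of the right.

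Ordered by level per length in MDA-MB-436 siNT, NOTCH2 was first with 23.6 reads per kilobase per M reads, followed by NOTCH1 with 7.79, JAG2 with 6.58 and HES1 with 6.30, and the ranges of neighbours among the last 3 overlapped. LFNG with 4.41, NOTCH3 with 4.40 and RFNG with 4.17 formed a second group of overlapping ranges. JAG1 with 1.69, HEY1 with 0.365 and MFNG with 0.0642 came last, each apart from the next. In BoM-1833 siNT the order began with JAG1 at 24.8 and NOTCH2 at 22.1, whose ranges overlapped. LFNG with 9.11 and HES1 with 8.08 overlapped as the next pair, and RFNG with 5.798, NOTCH1 with 2.55 and HEY1 with 0.946 followed without overlap. NOTCH3 with 0.260 and JAG2 with 0.219 overlapped near the bottom, above MFNG with 0.0731. After siPHF19, LFNG passed from the fifth place to the eighth in MDA-MB-436, with 1.27, below JAG1 with 1.54, and kept the third in BoM-1833, with 13.3.

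The other 52 genes of the pathway list were picked by role and not by their response to the siRNA, though earlier results of these data were known. They were tested by the authors' deposited DESeq2 comparison. In MDA-MB-436, 10 of 46 tested genes were called, a total close to the background of 22.1%. By direction 8 were higher and 2 lower, where 10.5% of all tested genes were called higher and 11.5% lower. This split was not tested. In BoM-1833, 5 of 44 were called, a total close to the background of 10.9%. Of these, 2 were higher and 3 lower, against 5.21% and 5.72% of all tested genes. The first count was 5 without siNT replicate 2 and 4 without siPHF19 replicate 2. Without siNT replicate 1 it was 8, and 5 of these were among the 10, with log2 fold changes of 0.29 for FURIN, 0.43 for PSENEN, 0.29 for NEURL1B, 0.32 for DTX4 and -0.58 for NRARP. The second count was 9 without siNT replicate 1, with -0.68 for both RBPJ and MAML3, -0.42 for EOGT and 0.43 for XXYLT1 and a lost call for NEURL1B, and 3 without siNT replicate 2 or any 1 of the siPHF19 libraries. The median log2 fold change of the list was -0.02 in both lines, against -0.0022 and -0.0035 for all genes.

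Of genes that glycosylate the receptors, XXYLT1, which extends O-glucose glycans with xylose, rose in both lines. Its normalized counts were 248, 343 and 358 in MDA-MB-436 siNT and 409.9, 425 and 455 in siPHF19, and 622, 603 and 641 against 846, 811.5 and 848 in BoM-1833. The deposited table gives log2 fold changes of 0.44 (SE 0.15, adjusted p 0.0148 by DESeq2) and 0.43 (SE 0.09, adjusted p 4.85e-05). The MDA-MB-436 call was lost without siNT replicate 1 (0.30) and without siPHF19 replicate 2 or 3 (0.45 and 0.40), while that in BoM-1833 was kept under all 11 alternatives. POFUT1, which adds the O-fucose that Fringe enzymes extend, rose in MDA-MB-436 by 0.18 (SE 0.07, adjusted p 0.0474 by DESeq2), a call that 8 of 11 alternatives did not keep. EOGT, which adds O-linked N-acetylglucosamine to EGF repeats, fell in BoM-1833 with an estimate of -0.38 on the log2 scale (SE 0.12, adjusted p 0.0159 by DESeq2), and its call was lost without siNT replicate 2 (-0.29) and without any 1 of the siPHF19 libraries (-0.38 to -0.37).

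Of genes that process receptor and ligand, NEURL1B, a ubiquitin ligase for ligand endocytosis, was the other gene called higher in both lines. It had 1170, 1315 and 1302 normalized counts in MDA-MB-436 siNT and 1637, 1538 and 1639 in siPHF19, and 121.5, 155 and 168 against 199, 229.998 and 199 in BoM-1833. Its log2 fold changes were 0.34 (SE 0.08, adjusted p 3.12e-04 by DESeq2) and 0.50 (SE 0.17, adjusted p 0.0331), and 5 of the 6 fits without 1 library did not keep the BoM-1833 call (0.38 to 0.54). FURIN, the protease that cleaves the receptor precursor, rose in MDA-MB-436 by 0.38 (SE 0.10, adjusted p 9.75e-04 by DESeq2), and PSENEN, a gamma-secretase subunit, by 0.39 (SE 0.12, adjusted p 0.0105). FURIN kept its call under all 11 alternatives and PSENEN under 5 of 11. DTX4 and DTX2, of the Deltex family of ubiquitin ligases, rose in MDA-MB-436 by 0.44 (SE 0.12, adjusted p 0.00172 by DESeq2) and 0.22 (SE 0.09, adjusted p 0.0485). DTX4 was called under all 11 alternatives and DTX2 under 3.

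Of the nuclear complex, RBPJ fell in BoM-1833, from 4431, 5326 and 5255 normalized counts to 3339, 3337 and 3230.2, and all treated libraries lay below all controls. Its log2 fold change was -0.60 (SE 0.07, adjusted p 9.49e-14 by DESeq2), called under all 11 alternatives. In MDA-MB-436 RBPJ had 2054, 2358 and 2486 against 2035, 2151 and 1871, an estimate of -0.19 on the log2 scale (SE 0.09, adjusted p 0.141) that did not pass. MAML3, a Mastermind coactivator, fell in BoM-1833 from 445, 519 and 582 to 353, 340 and 340, with -0.58 (SE 0.12, adjusted p 6.48e-05 by DESeq2), also kept under all 11 alternatives, and did not pass in MDA-MB-436 (0.30, SE 0.21, adjusted p 0.332). MAML2, another Mastermind coactivator, rose in MDA-MB-436 from 75.3, 103 and 132 to 156, 195 and 152, with 0.70 (SE 0.22, adjusted p 0.00885 by DESeq2), and did not pass in BoM-1833 (-0.05, SE 0.12, adjusted p 0.880). That MAML2 call was lost without siNT replicate 1 (0.53), siNT replicate 2 (0.70) or siPHF19 replicate 2 (0.58).

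For each gene the response in one line was set against that in the other by a z test, with 4.89% of 12290 genes called. Of the 42 pathway genes tested in both lines, 3 were called, a count near that background, and each was more negative in BoM-1833. MAML1 and SNW1, the other tested genes of the nuclear complex, were not called (adjusted p 0.578 and 0.659). MAML3 differed by -0.88 (SE 0.24, adjusted p 0.010, z test), RBPJ by -0.41 (SE 0.12, adjusted p 0.0163) and MAML2 by -0.75 (SE 0.25, adjusted p 0.0481). In edgeR's interaction test, adjusted p was 0.0106 for MAML3, 0.0496 for RBPJ and 0.0765 for MAML2. MAML3 kept its call in all 14 alternative fits, with adjusted p up to 0.0420. That test gave 2 called genes with all libraries. Leaving out 1 library, it gave 5 without MDA-MB-436 siNT replicate 3 or BoM-1833 siNT replicate 1, 3 without MDA-MB-436 siPHF19 replicate 3 and 1, MAML3, without any other. RBPJ kept its call in 4 of 14 and MAML2 in 2 of 14. POGLUT1, an O-glucosyltransferase of the same list, was lower in every treated library of MDA-MB-436 and higher in every one of BoM-1833, but its difference of 0.31 (SE 0.15, adjusted p 0.261) did not pass. It was singled out after its values were seen.

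Of the further targets on the list, NRARP, a target and feedback inhibitor of Notch, fell in MDA-MB-436 from 249, 219 and 207 normalized counts to 162, 123 and 144, with an estimate of -0.66 on the log2 scale (SE 0.17, adjusted p 8.47e-04 by DESeq2) that was called under all 11 alternatives. HES7, the segmentation clock repressor, fell there from 266, 250.3 and 215 to 177, 156.5 and 178.5, with -0.52 (SE 0.15, adjusted p 0.00495). The call of HES7 was lost without siNT replicate 1 (-0.46), siNT replicate 2 (-0.50) or siPHF19 replicate 2 (-0.46). In BoM-1833 NRARP and HES7 had 15.3 to 28.6 and 28.6 to 57.2 normalized counts and neither passed. The other 3 tested targets of the list were not called in MDA-MB-436, with log2 fold changes of -0.24 for HES4, -0.26 for HES6 and 0.05 for HEYL (adjusted p 0.268, 0.144 and 0.940 by DESeq2). In BoM-1833 HES4 was at 0.58, HES6 at 0.33 and HES2 at 0.10, none called (adjusted p 0.164, 0.482 and 0.876 by DESeq2). HEYL was not tested there. Between lines HES4 differed by 0.82 (SE 0.31) and HES6 by 0.59 (SE 0.27), neither called (adjusted p 0.104 and 0.244, z test).

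At baseline, 45 of 48 tested pathway genes differed between the control cells, 21 higher and 24 lower in BoM-1833. Of all tested genes 82.8% were called, 40.6% higher and 42.3% lower, and the gap between the shares was not tested. A log2 fold change of at least 1 in size and a call were found for 24 of 48, against 42.8% of all genes. HES2, a repressor of the HES family, was 17.7-fold higher in BoM-1833 (95% interval 12.3 to 25.4, adjusted p 5.62e-10 by edgeR), DLK2, a non-canonical ligand, 10.6-fold (8.20 to 13.65, adjusted p 1.27e-11) and MAML2 10.1-fold (7.87 to 12.9, adjusted p 1.1e-11). DLL3, an atypical Delta-like ligand known from neuroendocrine tumours, had 289 reads over the 3 MDA-MB-436 siNT libraries and 2 over those of BoM-1833. The ratio of levels scaled to depth was 142.5, with an exact 95% interval of 39.1 to 1182 that covers counting error only. DTX4 was 21.7-fold lower (log2 fold change -4.44, 95% interval -4.85 to -4.04, adjusted p 1.35e-12 by edgeR) and NRARP 8.66-fold lower (-3.11, 95% interval -3.51 to -2.72, adjusted p 9.72e-11). All 6 were called under each of the 10 alternative fits. RBPJ and MAML3, which fell in BoM-1833 after siPHF19, were 2.48-fold (95% interval 2.20 to 2.79) and 6.18-fold (5.13 to 7.44) higher in its control cells.

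The genes whose pair of log2 fold changes lay closest to that of LFNG, by Euclidean distance over the 2 lines among 9835 genes that averaged 100 normalized counts or more in each table, included PMEPA1, IL11, HTRA1, SERPINE2 and NXT2. Distances ran from 0.65 for PMEPA1 to 0.83 for NXT2. In the authors' deposited table their MDA-MB-436 values were -1.59 for PMEPA1, -1.31 for IL11, -1.11 for HTRA1, -1.18 for SERPINE2 and -1.52 for NXT2, each called lower. In BoM-1833 these 5 ran from -0.25 for NXT2 to 0.17 for HTRA1, and none of them was called. As these 5 genes were picked by this distance, the decrease in MDA-MB-436 that they shared with LFNG follows from the choice. They did not share the increase in BoM-1833, while LFNG was 1 of 22 genes called lower in MDA-MB-436 and higher in BoM-1833.

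The 6-base sequence AAACTG was counted in annotated 3′ UTRs of GENCODE v29, because an earlier look at these data had found it more often in genes lower after siPHF19. The shares below come from the same data, so they are a description and no test of the sequence. In BoM-1833 it was present in 62.9% of 682 genes called lower, 36.8% of 638 called higher and 42.9% of 10118 not called, with median UTR lengths of 1580, 1277 and 1110 bases. In MDA-MB-436 the shares were 51.4% of 1511 genes called lower, 45.1% of 1379 called higher and 41.8% of 9335 not called, with median UTR lengths of 1012, 1727 and 1081 bases. HEY1 held it 3 times, NOTCH2 and JAG1 1 time each, and LFNG, MFNG, RFNG, NOTCH1, NOTCH3, JAG2 and HES1 0 times. Of the 51 other pathway genes with an annotated 3′ UTR, 22 held it, or 43.1%. Among genes called lower in BoM-1833, 2 of 3 held it (RBPJ with 5 and MAML3 with 4 matches, EOGT with 0). It was in 1 of the 2 called higher there and 17 of the 38 not called. In MDA-MB-436 it was in 0 of 1 called lower, 3 of 8 called higher and 18 of 36 not called. Some genes not called lower held as many matches, among them GXYLT1 with 5 and MIB1, DTX3L and DTX4 with 4 each. NEURL1B, called higher in both lines, had 3 matches. Longer UTRs have more room for a match, and lengths were 4124 bases for RBPJ, 2570 for MAML3 and 2401 for EOGT. They were 5941 for GXYLT1, 6291 for MIB1, 3456 for DTX3L, 3678 for DTX4 and 4615 for NEURL1B. The part of AAACTG in these changes was not tested.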

How the data were processed

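Libraries came from a stranded mRNA preparation, per the labels. Reads were processed with STAR, RSEM 1.3.1 and DESeq2 1.46.0 on hg38, per the submitters' processing notes; annotation and use of strand in counting are not given in the sources used here. The authors deposited 1 table per line. The values per library in the tables deposited by the authors are a signal, made by dividing read counts by 1 size factor for each library. Deposited fold changes are on the log2 scale and not shrunken, the Wald statistics are a score, and the authors supplied the p-values, raw and adjusted. Groups and replicate numbers came from sample titles. Deposited calls at an adjusted p under 0.05 were the main test of siPHF19 against siNT. Genes without an adjusted p were not tested.

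Whole reads were recovered in all 12 columns (100% of values within 0.01 read of a whole number). On these reads DESeq2 1.42.0, run as an alternative chosen after seeing the data, gave the deposited calls, 3143 and 1411, and edgeR 4.0.16 called 3422 and 1527 genes in MDA-MB-436 and BoM-1833. Control cells were compared by edgeR's quasi-likelihood test on the recovered reads of all 12 libraries (TMM, filterByExpr), since the deposited tables were normalized separately per line. Differences between lines used a z test, in which the gap between the 2 log2 fold changes is divided by its standard error, with Benjamini-Hochberg adjustment over 12290 genes. Fits were tested on simulated data. Intervals cover 95%, and counting intervals cover counting error only, as reads carry no molecular identifiers. Levels per length used GENCODE v29 exon lengths, which may not be the authors' annotation. Promoters came from RefSeq (GRCh38.p14).

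The genes and lists were chosen with earlier results of these data known. Named were the 10 Notch genes, PHF19, each pathway gene called in a line, the 3 highest and 3 lowest called pathway genes at baseline, and the 6 genes most like LFNG, of which 1 is not reported here. Alternatives were another tool, size factors or filter, a replicate block, a minimum fold change, and leaving out each library. Marker lists were checked by their levels.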

Additional observations from a re-analysis of the deposited data

Results flagged for a closer look

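LFNG differed between the lines, because all 3 siPHF19 libraries lay below the controls in MDA-MB-436 and all 3 above them in BoM-1833. The difference in log2 fold change was 2.34 and was not tested, since LFNG was chosen for it.

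MAML3, RBPJ and MAML2, the DNA-binding protein and 2 coactivators of the Notch nuclear complex, were called different between the lines by the z test, 3 of 42 pathway genes against 4.89% of all genes. The differences, BoM-1833 minus MDA-MB-436, were -0.88, -0.41 and -0.75 on the log2 scale. MAML3 kept its call in all 14 alternative fits, RBPJ in 4 and MAML2 in 2, and edgeR's interaction test gave MAML2 an adjusted p of 0.0765.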

How the results depend on the processing

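Leaving out 1 library at a time gave 2 to 4 called Notch genes in MDA-MB-436, 1 to 3 such genes in BoM-1833, and 4 to 11 called pathway genes against 3 to 9. At baseline it gave 8 Notch genes throughout and 44 to 45 pathway genes. Between lines, where the z test called 3 pathway genes, edgeR's interaction test called 2 with all libraries and 1 to 5 without 1 library. A minimum absolute log2 fold change of 0.5 left 2 called Notch genes in BoM-1833 and 3 called pathway genes in each line, and one of 1 left 24 pathway genes at baseline. A replicate block gave 3 called Notch genes (MDA-MB-436) and 1 (BoM-1833), 5 and 3 called pathway genes, 8 Notch and 45 pathway genes at baseline, and, in edgeR's interaction test, 1 pathway gene called different. Whether the numbers pair the libraries cannot be settled from 3 libraries per group. Same-numbered deviations correlated at -0.10 to -0.05 in MDA-MB-436, and at -0.23 to -0.14 in BoM-1833. Each siNT library correlated least with the siPHF19 library of its own number. No direction of a called gene reversed in any alternative run. The block lost the calls of NOTCH1, HES1, HEY1, EOGT and NEURL1B in BoM-1833, and of POFUT1, XXYLT1, PSENEN, DTX2 and HES7 in MDA-MB-436. Without independent filtering NOTCH1 in BoM-1833 and POFUT1 and DTX2 in MDA-MB-436 were not called, and edgeR did not call POFUT1. Changes of a single gene's call on leaving out a library are given beside its values, singly or as a count. The cause of these changes was not tested. Depth limits MFNG, HEY1 and, in BoM-1833, JAG2 and NOTCH3.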

Other observations

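HES2, which was too low to be tested for its response in MDA-MB-436, had 5.46, 5.43 and 4.89 normalized counts in the 3 siNT libraries of that line and 0 in each siPHF19 library. In BoM-1833 it had 76.2, 81.2 and 95.4 in siNT and 89.4, 88.5 and 92.5 in siPHF19.

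The remaining Notch receptor and Delta-like ligands were low in both lines. NOTCH4 had 12.2 to 21.8 normalized counts in MDA-MB-436 siNT and 31.5 to 41.5 in BoM-1833 siNT, DLL1 had 13.4 to 17.1 and 0.954 to 4.76, and DLL4 had 1.09 to 4.89 and 20.03 to 25.4.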
